A study of Mus musculus with 8 samples.

Results

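The chemokines, the interleukins and the subunits of interleukin receptors were compared across 4 genotypes of mouse aortic vascular smooth muscle cells. Members were all rows of the count table whose symbol is Ccl, Cxcl, Cx3cl or Il followed by a digit and then only by digits or lower-case letters. The rule found 122 of 55353 rows, made up of 13 CXC chemokines, 1 CX3C chemokine, 25 CC chemokines, 37 interleukins, 6 soluble inhibitors or decoys, 38 receptor subunits and 2 other entries. Receptors for chemokines carry other symbols and are described apart. Of the 122 members, 35 had no count in any library, 42 had counts but were too low to test, and 45 were tested.

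The cells were E12 knockout (E12 KO), E12 wild type (E12 WT), E47 knockout (E47 KO) and E47 wild type (E47 WT), with 2 mRNA libraries each. E12 and E47 are alternative products of Tcf3, the gene of the E-protein transcription factor E2A, and the study is about how E proteins act on cell proliferation. All 4 cell stocks had been frozen, were revived in culture and were lysed without any named treatment. The labels give 2 extractions per genotype, but neither the strain, the age, how a knockout was made nor whether the extractions came from separate cultures or animals, so p-values here cover the variation among extractions alone, and this may be of technical origin.

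Chemokines are small secreted proteins that direct the movement of leukocytes through receptors on those cells. CXC members such as Cxcl1 mainly attract neutrophils, CC members such as Ccl2 mainly attract monocytes and lymphocytes, and Cxcl12 acts through CXCR4 on many cell types. Interleukins signal through receptors of 2 or more chains, many of which share a common chain: Il6st (gp130) serves the IL6 family, Il1rap the IL1 family and Il2rg the IL2 family. Vascular smooth muscle cells are known to make IL6 and CCL2 when they are stimulated, and chemokines and interleukins of the arterial wall are known for their part in vascular inflammation.

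Total counts per library ran from 13909230 to 27517374, and the members together took 0.352% to 0.354% of the counts in E12 KO, 0.295% to 0.298% in E12 WT, 0.502% in E47 KO and 0.507% to 0.509% in E47 WT. Whole-gene counts of Tcf3 cover both E12 and E47 and so do not check either knockout. They came to 128 to 145 CPM (counts scaled to a common library size with TMM factors) in the knockouts, against 93.7 to 109 CPM in the wild types. The smooth muscle label was checked against 8 markers. Acta2 averaged 1638 CPM in E12 KO, 1953 in E12 WT, 2108 in E47 KO and 3566 in E47 WT, while Lmod1 averaged 47.02, 39.6, 102 and 232.5 CPM and Smtn 128, 113, 115 and 310.1 CPM in the same order. Myh11, at 2.42, 7.44, 6.93 and 98.2 CPM, and Cnn1, at 2.31, 7.34, 19.8 and 103.5 CPM, were low outside E47 WT. Myocd averaged 1.66, 11.3, 12.1 and 4.90 CPM and Des stayed under 4 CPM. Tagln averaged 1.04, 1.71, 5.89 and 17.8 CPM, a level that is uncertain because 67.9% of its exon bases overlap other genes and strand was not kept; for Smtn the overlap is 16.3%. The E47 WT libraries stood apart from the other 6 by 9 endothelial markers, whose summed level was 707 and 643 CPM in E47 WT and between 4.14 and 10.2 CPM in the other libraries. Cldn5 was at 0 throughout. In bulk RNA, fewer cells of a type and less RNA per cell cannot be told apart. The 10 macrophage markers summed to between 11.4 and 16.4 CPM and 9 lymphocyte markers to no more than 0.234 CPM in any library.

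Across the tested members, 12 of 45 rose and 16 fell in E12 KO relative to E12 WT (edgeR quasi-likelihood test, Benjamini-Hochberg adjusted p under 0.05 over all 13992 genes tested). Of all genes tested, 46.4% were called in that comparison, 21.9% higher and 24.5% lower, against 62.2% of the members. In E47 KO relative to E47 WT, 17 members rose and 9 fell, that is 57.8% of the members against 55.2% of all genes, of which 27.7% were higher and 27.5% lower. The members' median log2 change was 0.03 in E12 KO and 0.11 in E47 KO, against -0.01 and 0.01 for all genes. When the E47 WT libraries were left out of the fit, 42 members were tested. Of these, again 12 were higher and 16 lower in E12 KO, while 45.9% of all genes were called. The E47 comparison has no other wild type and cannot be made without the E47 WT libraries.

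Markers of other cell types moved in the same comparisons. All 8 endothelial markers that were tested fell in E47 KO, whose libraries summed to 6.71 and 4.14 CPM, Pecam1 to 0.553 CPM in E47 KO against 202 CPM in E47 WT. The 8 mesothelial markers summed to 874 and 894 CPM in E12 KO, against 1584 and 1474 CPM in E12 WT, with 2 of 7 tested higher and 5 lower. They summed to 398 and 412.2 CPM in E47 KO, against 222 and 205 CPM in E47 WT, with 6 of 7 higher and 1 lower. Adventitial fibroblast markers summed to 236 and 212 CPM in E12 KO, against 194 and 201 CPM in E12 WT. Of 8 tested, 4 rose and 2 fell, or 2 and 2 by DESeq2. In E47 KO these markers summed to 439.6 and 497 CPM, against 219.8 and 207 CPM in E47 WT, and 5 rose and 2 fell. The part of these cells in the members' changes was not tested. Of 8 smooth muscle markers, 2 rose and 5 fell in E12 KO and 1 rose and 7 fell in E47 KO. Of 10 macrophage markers 4 could be tested (1 higher and 3 lower in E12 KO, 1 higher and 2 lower in E47 KO) and Itgam, with 68.7% of its exon bases in another gene, was at 0 throughout, 0 of 9 lymphocyte markers could be tested, with 5 at 0 throughout, and of 8 neutrophil and mast cell markers only Mcpt4 could be, at 2.84 CPM in E47 KO against 0.312 CPM in E47 WT.

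The heatmap of levels shows how unlike the genotypes were in these genes. Of the 45 tested members, 41 differed among the 4 genotypes in a test of any difference, against a background of 80.8% of all genes. Ccl20, Cxcl1, Cxcl15 and Il33 rose in both knockouts, that is 8.89% of the tested members against 7.5% of all genes tested, and Il11ra1 and Il27ra fell in both, 4.44% against 8.63%. Cxcl12, Il3ra and Ccl9 rose in E12 KO and fell in E47 KO, 6.67% against 5.3%. Another 8 members went the other way, falling in E12 KO and rising in E47 KO, 17.8% against 7.92% of all genes, a difference that was not tested. These were Il1rl1, Il18rap, Il17re, Il16, Il15, Il18, Ccl7 and Il6st. Il16, Il15 and Il6st each lost their call in both knockouts in at least 1 alternative fit. Il1rl1 held only 1 count in E12 KO and 4 in E47 WT, and Ccl7 held 1 count in E47 WT.

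**Figure D1:**
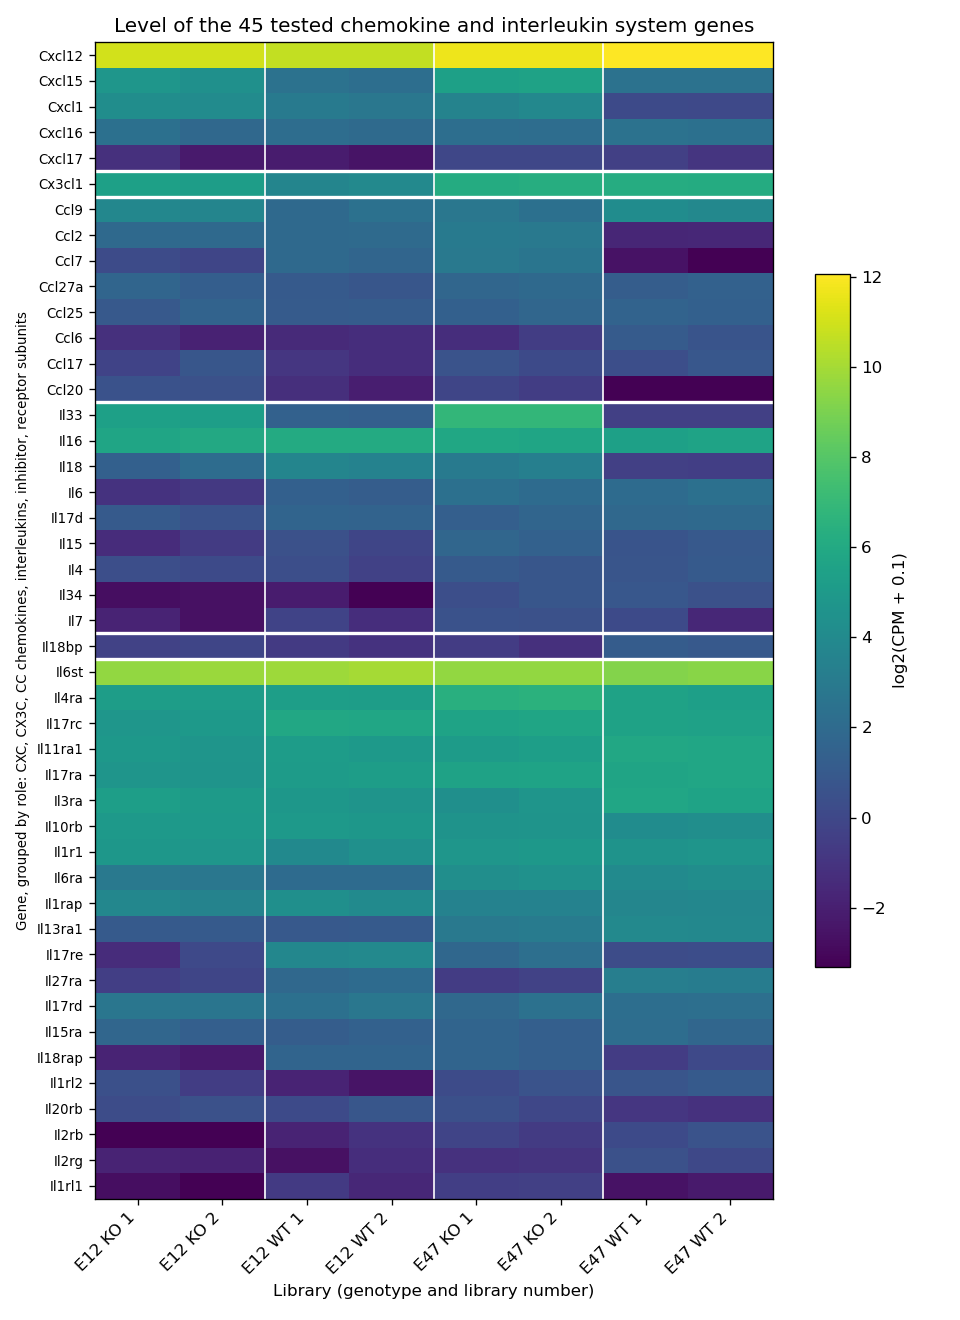
Each row is a tested member and each column a library, knockout left of wild type, coloured by log2(CPM + 0.1) on the scale beside it. Cxcl12 and Il6st are high in all 8 libraries, Il33 is high in the 4 knockout libraries, and many members stay under 2 CPM.

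Il33, a nuclear cytokine of the IL1 family that is released from damaged cells, had the lowest p of all members in both knockouts. It was at 43.3 and 39.8 CPM in E12 KO, against 2.68 and 2.39 CPM in E12 WT, and at 119 and 116 CPM in E47 KO, against 0.645 and 0.663 CPM in E47 WT. The gene lies on chromosome 19 from 29925114 to 29960718 on the plus strand (GRCm38). All 4 knockout libraries stood above all 4 wild-type libraries, with the E47 KO pair highest and the E47 WT pair lowest. A lack of overlap between knockout and wild type held for 71.3% of all genes tested in the E12 comparison and 77.6% in the E47 comparison. The log2 change of Il33 came to 4.03 (SE 0.118, adjusted p = 3.2e-12) in E12 KO and 7.47 (SE 0.129, adjusted p = 4.9e-15) in E47 KO. The changes differed by -3.44, E12 KO minus E47 KO, on the log2 scale (adjusted p = 4.4e-08). Its receptor chain Il1rl1 (ST2) stayed near the limit of detection, at 0.0483 and 0 CPM in E12 KO, 0.511 and 0.224 CPM in E12 WT, 0.624 and 0.668 CPM in E47 KO, and 0.0716 and 0.117 CPM in E47 WT.

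The 250 bases before the start sites of the members that rose in both knockouts are shown because E2A proteins bind E boxes, so these are the stretches in which such letters would first be looked for. Sequences are RefSeq's. Capitals mark the E box letters CANNTG, which read the same on both strands, and the NF-kappaB letters GGGNNNNNCC, searched on both strands, with overlapping matches run together. Il33 has 2 annotated starts.
Il33 upstream promoter, GRCm38.p6 chr19:29924863-29925112, plus strand: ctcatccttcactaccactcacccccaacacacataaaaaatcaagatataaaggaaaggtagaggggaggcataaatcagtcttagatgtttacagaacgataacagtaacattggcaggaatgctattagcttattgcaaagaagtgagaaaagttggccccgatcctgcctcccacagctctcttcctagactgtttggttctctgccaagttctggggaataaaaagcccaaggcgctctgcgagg
Il33 internal promoter, GRCm38.p6 chr19:29945540-29945789, plus strand: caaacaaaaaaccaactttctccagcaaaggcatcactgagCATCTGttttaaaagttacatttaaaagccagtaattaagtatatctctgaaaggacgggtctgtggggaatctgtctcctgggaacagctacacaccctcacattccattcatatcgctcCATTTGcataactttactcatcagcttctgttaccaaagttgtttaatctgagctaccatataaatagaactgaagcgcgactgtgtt
Cxcl15 promoter, GRCm38.p6 chr5:90794284-90794533, plus strand: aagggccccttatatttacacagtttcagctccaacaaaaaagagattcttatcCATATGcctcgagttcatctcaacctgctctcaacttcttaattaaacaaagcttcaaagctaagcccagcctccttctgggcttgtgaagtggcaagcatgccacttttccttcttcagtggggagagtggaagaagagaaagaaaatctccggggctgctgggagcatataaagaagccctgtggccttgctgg
Cxcl1 promoter, GRCm38.p6 chr5:90890995-90891244, plus strand: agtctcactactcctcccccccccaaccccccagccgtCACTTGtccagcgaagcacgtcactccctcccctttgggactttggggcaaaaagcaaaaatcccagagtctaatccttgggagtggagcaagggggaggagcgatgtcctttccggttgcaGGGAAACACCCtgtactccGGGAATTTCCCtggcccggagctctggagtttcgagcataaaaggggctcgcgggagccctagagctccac
Ccl20 promoter, GRCm38.p6 chr1:83116516-83116765, plus strand: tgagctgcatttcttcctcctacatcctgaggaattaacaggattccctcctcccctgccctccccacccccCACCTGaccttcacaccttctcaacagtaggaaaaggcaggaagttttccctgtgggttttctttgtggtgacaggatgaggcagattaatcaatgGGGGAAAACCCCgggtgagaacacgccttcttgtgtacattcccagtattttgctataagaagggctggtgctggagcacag
The upstream Il33 window held neither set of letters and the internal one held 2 E boxes. The Cxcl15 window held 1 E box, while the Cxcl1 window held 1 E box and 2 NF-kappaB stretches, and the Ccl20 window 1 of each; no E box overlapped an NF-kappaB stretch. Both sets of letters are common: 66.2% of 32817 promoter windows of this length hold an E box and 45.8% the NF-kappaB letters. RefSeq windows were matched for 34 of the 45 tested members, and of their 45 windows 35 held an E box and 19 the NF-kappaB letters. A match is a description of the letters and shows no binding.

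Among the CXC chemokines, 5 of 13 were tested. Of these 3 rose in E12 KO and 0 fell, with 0 lower also at an unadjusted p under 0.05 and by DESeq2, and 2 rose and 1 fell in E47 KO. That is 60% called in either comparison, against 46.4% of all genes in E12 KO and 55.2% in E47 KO. Cxcl15, a mouse chemokine that attracts neutrophils, was at 27.2 and 21.1 CPM in E12 KO, against 5.42 and 4.56 CPM in E12 WT, and at 43.4 and 45.9 CPM in E47 KO, against 5.59 and 5.498 CPM in E47 WT. The 2 wild types lay close together and every knockout library lay well above them. On the log2 scale the change was 2.27 (SE 0.146, adjusted p = 1e-08) in E12 KO and 3.01 (SE 0.129, adjusted p = 5.2e-11) in E47 KO. Cxcl1, which attracts neutrophils through CXCR2 and lies 88.2 kb from Cxcl15 on chromosome 5, was at 18.3 and 17 CPM in E12 KO, against 7.66 and 6.73 CPM in E12 WT. It was at 11.6 and 14.6 CPM in E47 KO, against 1.003 and 0.975 CPM in E47 WT. The groups did not overlap in either comparison, and E47 WT was the lowest pair. Such a lack of overlap held for 71.3% of all genes tested in the E12 comparison and for 77.6% in the E47 comparison. Cxcl1 rose by 1.29 (SE 0.137, adjusted p = 2.2e-06) in E12 KO and by 3.72 (SE 0.199, adjusted p = 7e-10) in E47 KO on the log2 scale.

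Cxcl12, the CXCR4 ligand, was the most abundant member in every library. It was at 2103 and 2073 CPM in E12 KO, against 1613 and 1637 CPM in E12 WT, and at 3320 and 3336 CPM in E47 KO, against 4303 and 4249 CPM in E47 WT. Both knockouts lay between the 2 wild types. The change on the log2 scale was 0.36 in E12 KO (adjusted p = 0.00021) and -0.36 in E47 KO (adjusted p = 0.00016), and the changes differed by 0.72 (adjusted p = 7.5e-06). Cxcl16, a membrane-anchored chemokine that also binds oxidized lipoprotein, averaged between 4.15 and 5.35 CPM in the 4 genotypes and passed the test in neither knockout (adjusted p = 0.78 and 0.3), though 18.3% of its exons overlap another gene and strand was not kept. Cxcl17 reached at most 0.884 CPM in a library.

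Cx3cl1, or fractalkine, is made as a membrane protein that holds CX3CR1-bearing monocytes. It was at 43.0 and 38.5 CPM in E12 KO, against 12.8 and 15.0 CPM in E12 WT, and at 71.4 and 77.7 CPM in E47 KO, against 73.7 and 72.1 CPM in E47 WT. The E12 WT pair was low and the E47 pairs overlapped. Its knockout over wild-type log2 change came to 1.56 (SE 0.0997, adjusted p = 8.9e-09) in E12 KO and 0.03 (adjusted p = 0.76) in E47 KO, and the difference of the changes was 1.53 (adjusted p = 1.7e-07).

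**Figure D2:**
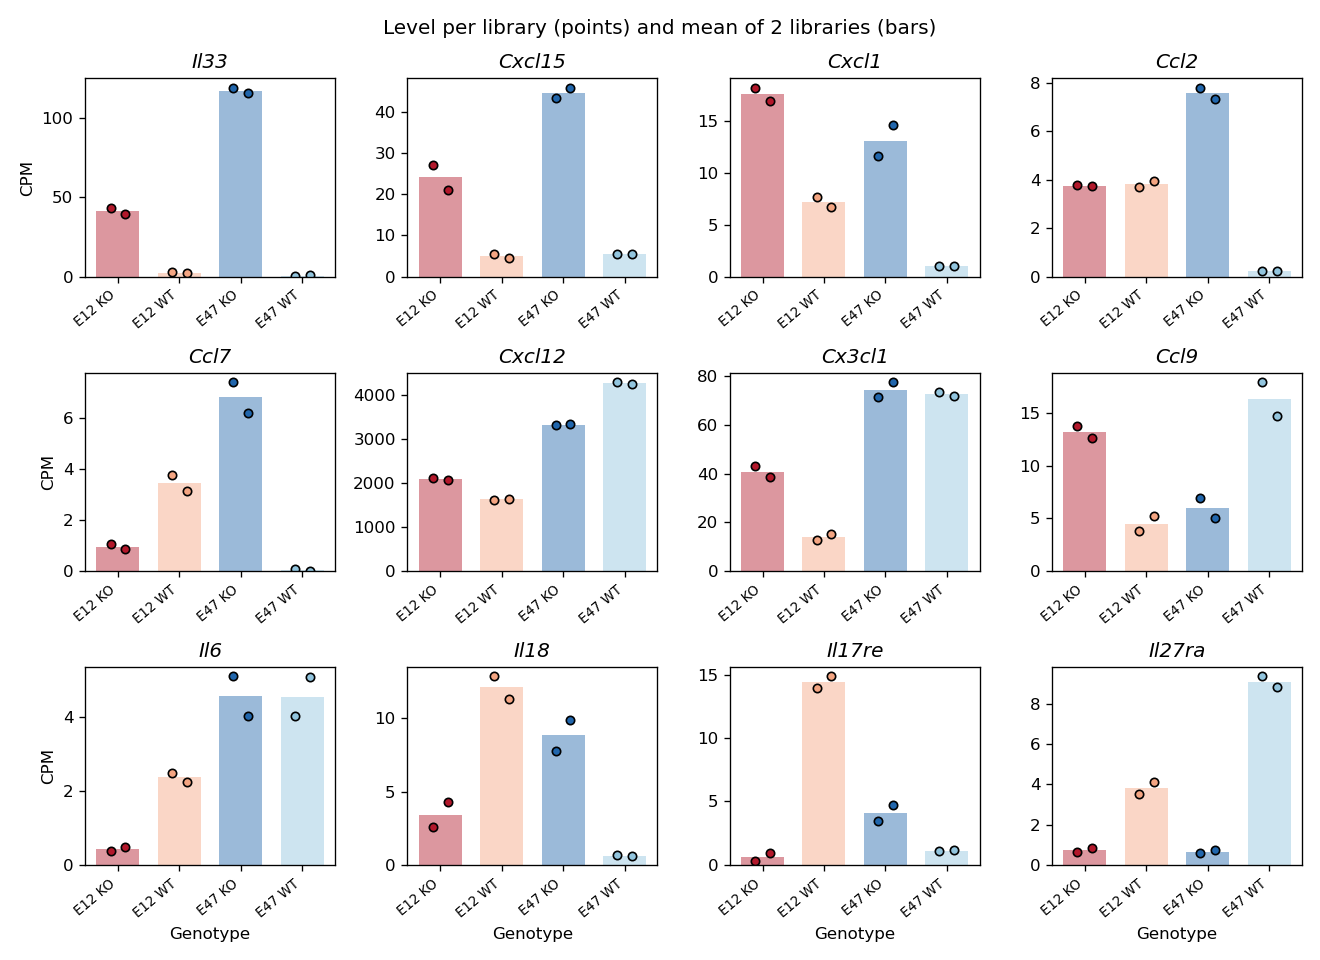
Each point is the CPM of a library, on linear axes from 0, for 12 members, with the knockout left of the wild type in each pair and bars at the mean of a genotype's 2 libraries. Il33, Cxcl15 and Cxcl1 are higher in both knockouts, and Ccl9 and Cxcl12 each move in opposite directions in the 2 knockouts. Il6 is lowest in E12 KO and next lowest in E12 WT.

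Of 25 CC chemokines, 8 were tested, of which 3 rose and 1 fell in E12 KO, and 3 rose and 2 fell in E47 KO. The shares called were 50% in E12 KO and 62.5% in E47 KO, against 46.4% and 55.2% of all genes. Ccl2 and Ccl7 attract monocytes through CCR2 and lie 8.26 kb apart on chromosome 11. Ccl2 was at 3.77 and 3.73 CPM in E12 KO, against 3.70 and 3.96 CPM in E12 WT, and at 7.80 and 7.35 CPM in E47 KO, against 0.215 and 0.234 CPM in E47 WT. The E47 WT pair was near 0, and the 4 E12 libraries lay together between the 2 E47 pairs. The fitted change on the log2 scale was -0.03 (SE 0.184, adjusted p = 0.92) in E12 KO and 5.02 (SE 0.273, adjusted p = 8.4e-10) in E47 KO. Ccl7 was at 1.06 and 0.841 CPM in E12 KO, against 3.77 and 3.14 CPM in E12 WT, and at 7.43 and 6.22 CPM in E47 KO, against 0.0716 and 0 CPM in E47 WT. It fell by 1.84 on the log2 scale in E12 KO (SE 0.292, adjusted p = 0.00011) and rose in E47 KO (adjusted p = 4e-09), where no fold is given because E47 WT held 1 count in all.

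Ccl9, a mouse chemokine that acts through CCR1, was at 13.8 and 12.7 CPM in E12 KO, against 3.77 and 5.23 CPM in E12 WT, and at 6.91 and 5.01 CPM in E47 KO, against 18.0 and 14.7 CPM in E47 WT. E12 KO lay above E12 WT, and E47 KO lay below E47 WT, with no overlap, as for 71.3% and 77.6% of all genes. Knockout over wild type, the log2 value was 1.57 (SE 0.184, adjusted p = 5.8e-06) in E12 KO and -1.41 (SE 0.163, adjusted p = 3.8e-06) in E47 KO. Its neighbour Ccl6, 9.25 kb away, was near the detection limit in 3 genotypes and fell by 1.96 on the log2 scale in E47 KO (adjusted p = 0.00078). The difference of its changes missed the threshold (adjusted p = 0.067). Ccl20, the ligand of CCR6, was at 1.35 and 1.32 CPM in E12 KO, against 0.319 and 0.150 CPM in E12 WT, and at 0.832 and 0.602 CPM in E47 KO, with no count in E47 WT. It rose by 2.44 on the log2 scale in E12 KO (adjusted p = 0.001), or by 3.10 without E12 WT replicate 1, and was at least 9.65-fold higher in E47 KO, taking 3 counts over the E47 WT group (adjusted p = 0.00013). Ccl17, the CCR4 ligand, rose in E12 KO by 1.60 on the log2 scale (adjusted p = 0.021), and lost the call without E12 KO replicate 2 (1.02, adjusted p = 0.21) and without E12 WT replicate 2 (1.36, adjusted p = 0.085). Ccl25 and Ccl27a, ligands of CCR9 and CCR10, passed the test in neither comparison, and Ccl27a has near-identical copies between which reads may be split.

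Of 37 interleukins, 9 were tested, of which 1 rose and 5 fell in E12 KO, and 5 rose and 0 fell in E47 KO. In E47 KO, 0 were lower also at an unadjusted p under 0.05, and 0 were lower and 2 higher by DESeq2. That is 66.7% called in E12 KO against 46.4% of all genes, and 55.6% in E47 KO, near the 55.2% of all genes. Il18, an IL1-family cytokine that inflammasomes activate, was at 2.56 and 4.27 CPM in E12 KO, against 12.9 and 11.4 CPM in E12 WT, and at 7.80 and 9.89 CPM in E47 KO, against 0.645 and 0.624 CPM in E47 WT. The wild types were thus the highest and the lowest pair. The log2 change stood at -1.86 (SE 0.201, adjusted p = 2.6e-06) in E12 KO and 3.78 (SE 0.286, adjusted p = 3.8e-08) in E47 KO. Il6, the acute-phase cytokine, was at 0.386 and 0.481 CPM in E12 KO, against 2.49 and 2.24 CPM in E12 WT, and at 5.09 and 4.01 CPM in E47 KO, against 4.01 and 5.07 CPM in E47 WT. The E47 libraries interleaved, the E12 KO pair was the lowest, and the E12 WT pair lay between. Il6 fell by 2.45 on the log2 scale in E12 KO (SE 0.36, adjusted p = 5.6e-05) and its change was -0.01 in E47 KO (SE 0.191, adjusted p = 0.96).

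Il16, a CD4 ligand, was the interleukin with the highest CPM in both wild types. It was at 54.0 and 61.7 CPM in E12 KO, against 69.0 and 67.6 CPM in E12 WT, and at 57.6 and 51.9 CPM in E47 KO, against 43.1 and 48.5 CPM in E47 WT. These changes were small, -0.24 (adjusted p = 0.033) and 0.25 (adjusted p = 0.025) on the log2 scale, and neither stayed past the threshold in DESeq2 (adjusted p = 0.067 and 0.069). The E12 change was -0.14 (adjusted p = 0.32) without E12 KO replicate 1 and -0.23 (adjusted p = 0.082) without E12 WT replicate 1, and the E47 change was 0.18 (adjusted p = 0.19) without replicate 1 of E47 KO or of E47 WT. Il16 also shares 17.4% of its exon bases with other genes. Il15, which supports natural killer and memory T cells, was at 0.290 and 0.541 CPM in E12 KO, against 1.34 and 0.822 CPM in E12 WT, and at 3.33 and 2.67 CPM in E47 KO, against 1.504 and 1.87 CPM in E47 WT. It fell by 1.43 in E12 KO (adjusted p = 0.02) and rose by 0.81 in E47 KO (adjusted p = 0.02) on the log2 scale. The fall became -1.01 (adjusted p = 0.17) without E12 KO replicate 1 and -1.02 (adjusted p = 0.21) without E12 WT replicate 1. The rise became 0.64 (adjusted p = 0.17) without E47 KO replicate 1, 0.69 (adjusted p = 0.097) without E47 WT replicate 1 and 1.01 (adjusted p = 0.057) without E47 WT replicate 2. Il17d, a member of the IL17 family, fell by 0.81 in E12 KO (adjusted p = 0.017), a call lost without E12 KO replicate 2 (-0.61, adjusted p = 0.12) and without E12 WT replicate 1 (-0.76, adjusted p = 0.078). Il7, which sustains lymphocytes, was called higher in E47 KO (1.37, adjusted p = 0.036), but the E47 WT libraries disagreed: the change was 2.49 (adjusted p = 0.0043) without E47 WT replicate 1 and 0.42 (adjusted p = 0.56) without E47 WT replicate 2. Without E47 KO replicate 1 or 2 it was 1.36 (adjusted p = 0.13) or 1.38 (adjusted p = 0.11). Il34, a ligand of the receptor Csf1r, and Il4 passed the test in neither knockout.

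Il18bp, which binds IL18 and keeps it from its receptor, was the only inhibitor or decoy of 6 that could be tested. It was at 0.572 and 0.334 CPM in E47 KO, against 2.15 and 1.83 CPM in E47 WT, a log2 change of -2.05 (adjusted p = 0.00022). In E12 KO it was at 0.724 and 0.841 CPM, against 0.511 and 0.374 CPM in E12 WT (adjusted p = 0.18). Il18 and Il18bp thus lay in opposite order in the E47 pair.

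Of 38 receptor subunits, 21 were tested, of which 4 rose and 10 fell in E12 KO, and 7 rose and 5 fell in E47 KO. That is 66.7% called in E12 KO against 46.4% of all genes, and 57.1% in E47 KO, near the 55.2% of all genes. The IL17 receptor chains held the largest fitted fall in E12 KO among members with more than 3 counts in each group. Il17re, which pairs with Il17ra to bind IL17C, was at 0.290 and 0.961 CPM in E12 KO, against 13.9 and 14.9 CPM in E12 WT, and at 3.43 and 4.75 CPM in E47 KO, against 1.07 and 1.17 CPM in E47 WT. E12 WT was far above the other 3 genotypes. This gave a log2 change of -4.59 (SE 0.283, adjusted p = 6e-09) in E12 KO and 1.82 (adjusted p = 0.00012) in E47 KO. The 2 E12 KO libraries differed, so the log2 change was -3.89 without replicate 1 and -5.59 without replicate 2 of E12 KO. Il17rc, which pairs with Il17ra to bind IL17A and IL17F and starts 0.669 kb beyond the end of Il17re on chromosome 6, was at 27.5 and 31.1 CPM in E12 KO, against 59.9 and 55.8 CPM in E12 WT. It fell by 0.99 on the log2 scale (SE 0.0836, adjusted p = 2e-07). The shared chain Il17ra fell by 0.52 in E12 KO (adjusted p = 0.00018), and neither Il17rc nor Il17ra passed the test in E47 KO (adjusted p = 0.11 and 0.091). Il17rd, which modulates the signal of this family, passed it in neither.

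**Figure D3:**
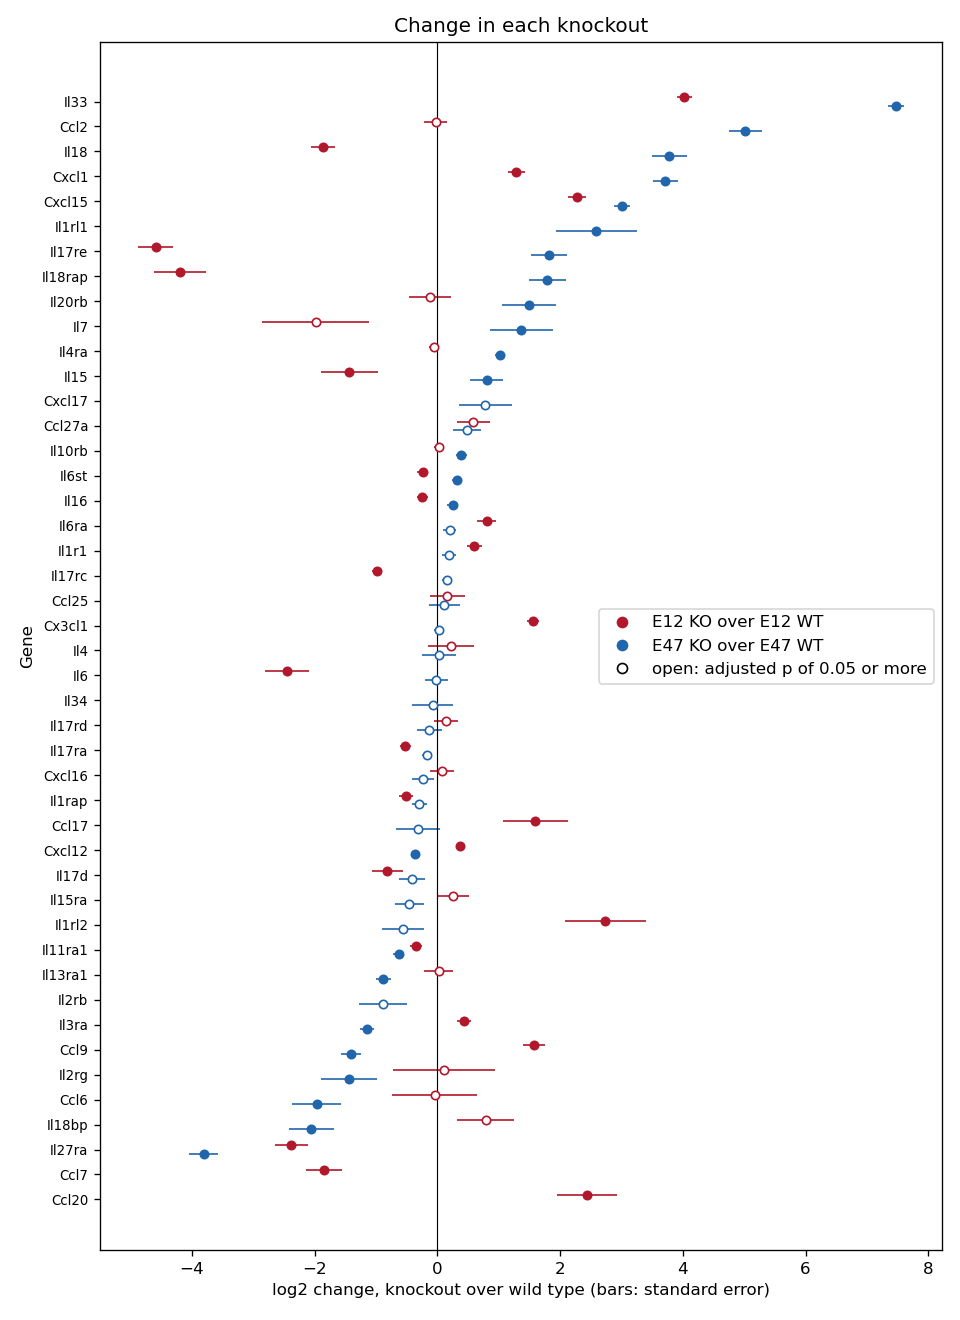
Points are log2 changes of each tested member, knockout over wild type, with bars of 1 SE, for E12 and E47, and filled points are past the test. Il33 lies far to the right in both, and Il17re and Il18rap lie left in E12 KO and right in E47 KO. A member has no point for a comparison in which a group held 3 counts or fewer.

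In the IL1 receptor family, Il18rap, the accessory chain of the IL18 receptor, was at 0.193 and 0.120 CPM in E12 KO, against 3.06 and 3.07 CPM in E12 WT, and at 3.07 and 2.47 CPM in E47 KO, against 0.573 and 0.936 CPM in E47 WT. It followed the same order as Il18 in each pair. Its log2 change came to -4.20 (SE 0.421, adjusted p = 1.2e-06) in E12 KO and 1.79 (adjusted p = 0.00013) in E47 KO. The other chain of that receptor, Il18r1, was too low to test, with 8 counts in all and 0 in E12 WT. Il1r1, the signalling receptor of IL1, averaged 27.6 CPM in E12 KO against 18.3 CPM in E12 WT and rose by 0.60 on the log2 scale (adjusted p = 0.00071), while in E47 KO the change of 0.19 missed the threshold (adjusted p = 0.17). Il1rap, the chain that Il1r1, Il1rl1 and Il1rl2 share, fell by 0.51 in E12 KO (adjusted p = 0.0024) and its change of -0.29 in E47 KO narrowly missed the threshold (adjusted p = 0.05, rounded). Il1rl2, the IL36 receptor, rose by 2.74 in E12 KO (adjusted p = 0.0031) at low counts; the change was 2.08 (adjusted p = 0.058) without E12 KO replicate 1 and 3.56 without E12 WT replicate 1. Il1r1, Il1rl2, Il1rl1 and Il18rap follow each other on chromosome 1 with gaps of 7.35 to 62.0 kb, and their changes in E12 KO were not of 1 sign.

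Il6st, the gp130 chain through which IL6, IL11 and IL27 signal, was at 757 and 864 CPM in E12 KO, against 885 and 1028 CPM in E12 WT, and at 770 and 778 CPM in E47 KO, against 591 and 648 CPM in E47 WT. Its libraries did not overlap within either pair, as for 71.3% of all genes in E12 and 77.6% in E47. The higher E12 KO and the lower E12 WT library of Il6st were nearly equal. On the log2 scale the change of Il6st was -0.24 (adjusted p = 0.032) in E12 KO and 0.32 (adjusted p = 0.0051) in E47 KO, but both calls depended on single libraries. The E12 change was -0.14 (adjusted p = 0.3) without E12 KO replicate 1, -0.13 (adjusted p = 0.27) without E12 WT replicate 2 and -0.23 without either E47 KO replicate (adjusted p = 0.051 and 0.05), and the E47 change was 0.25 (adjusted p = 0.056) without E47 WT replicate 1. Il27ra, which pairs with Il6st to bind IL27, was at 0.628 and 0.841 CPM in E12 KO, against 3.51 and 4.11 CPM in E12 WT, and at 0.572 and 0.735 CPM in E47 KO, against 9.38 and 8.85 CPM in E47 WT. Both knockouts were under 1 CPM and both wild types above 3. Il27ra fell by 2.38 (SE 0.27, adjusted p = 4.3e-06) in E12 KO and by 3.80 (SE 0.235, adjusted p = 3.8e-09) in E47 KO. Il11ra1, the IL11 receptor, fell by 0.34 in E12 KO (adjusted p = 0.0096) and by 0.63 in E47 KO (SE 0.0903, adjusted p = 3.3e-05), with the limit that the near-identical Il11ra2 may take part of its reads. Its change in E12 KO was -0.25 (adjusted p = 0.1) without E12 KO replicate 2 and -0.26 (adjusted p = 0.084) without E12 WT replicate 1. Il6ra, the chain that binds IL6, rose by 0.80 in E12 KO (adjusted p = 0.00087) and had a change of 0.20 in E47 KO (adjusted p = 0.11).

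Among receptors of the IL2, IL4 and IL10 families, Il4ra, which serves both IL4 and IL13, was at 37.2 and 36.8 CPM in E12 KO, against 39.5 and 37.5 CPM in E12 WT, and at 85.1 and 89.8 CPM in E47 KO, against 46.1 and 41.0 CPM in E47 WT. The E47 KO pair was the high one. The change on the log2 scale was -0.06 (adjusted p = 0.61) in E12 KO and 1.01 (SE 0.0766, adjusted p = 3.8e-08) in E47 KO; 9.51% of its exon bases overlap another gene. Its partner Il13ra1 averaged 1.93 CPM in E12 KO against 1.90 CPM in E12 WT, and 7.93 CPM in E47 KO against 14.6 CPM in E47 WT, a fall of 0.88 on the log2 scale in E47 KO (SE 0.122, adjusted p = 2.3e-05). Il3ra, the IL3-binding chain, rose by 0.44 in E12 KO (adjusted p = 0.0069; 0.31, adjusted p = 0.083, without E12 KO replicate 1) and fell by 1.14 in E47 KO (SE 0.115, adjusted p = 8.9e-07). Il10rb, shared by IL10 and IL22, rose by 0.39 in E47 KO (adjusted p = 0.0014), with 14.9% of its exon bases in another gene. Il20rb, a chain of the IL20 receptor, rose by 1.49 in E47 KO (adjusted p = 0.01); the change was 1.19 (adjusted p = 0.12) without E47 KO replicate 1 and 1.31 (adjusted p = 0.11) without E47 WT replicate 2. Il2rb, the IL2 and IL15 chain, had no count in E12 KO and was at least 3.43-fold lower there than in E12 WT (adjusted p = 0.0094). Il2rg fell in E47 KO by 1.44 (adjusted p = 0.015) and is uncertain, since 30.5% of its exon bases overlap another gene. Its change was -1.36 (adjusted p = 0.11) without E47 KO replicate 1, -1.501 (adjusted p = 0.064) without E47 KO replicate 2 and -1.22 (adjusted p = 0.093) without E47 WT replicate 1. Il15ra passed the test in neither knockout.

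The difference between the 2 knockout changes was tested directly. It passed for 32 of 45 members (71.1%), 11 with the E12 change above the E47 change and 21 with it below, against 48.6% of all genes, 22.9% above and 25.7% below. The lowest p among members with levels of 2 CPM or more belonged to Il18 (log2 difference -5.64, SE 0.35, adjusted p = 5.5e-09), Ccl7 (adjusted p = 6e-09), Il17re (-6.41, SE 0.424, adjusted p = 1.1e-08), Ccl2 (-5.05, SE 0.358, adjusted p = 2.6e-08), Il33 (-3.44, SE 0.256, adjusted p = 4.4e-08) and Ccl9 (2.98, SE 0.246, adjusted p = 1.4e-07). Of the 9 tested interleukins, 6 differed, and in all 6 the E12 change was the lower.

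The wild types themselves differed in most members. In E12 WT relative to E47 WT, 14 of 45 were higher and 21 lower (77.8%), against 55.4% of all genes, 27.8% higher and 27.6% lower. Cx3cl1 was at 12.8 and 15.0 CPM in E12 WT, against 73.7 and 72.1 CPM in E47 WT, a log2 difference of -2.40 (SE 0.0966, adjusted p = 1.5e-11). Cxcl12 was lower in E12 WT by 1.40 on the log2 scale (SE 0.0624, adjusted p = 5.3e-11), Il13ra1 by 2.94 (SE 0.165, adjusted p = 8.1e-10) and Il6ra by 2.14 (SE 0.14, adjusted p = 5e-09). Il18 was higher in E12 WT by 4.25 (SE 0.274, adjusted p = 4.3e-09) and Il17re by 3.65 (SE 0.247, adjusted p = 7.7e-09). Il33 was higher in E12 WT by 1.94 (adjusted p = 9.4e-06), while Cxcl15 did not pass this test (-0.14, adjusted p = 0.54).

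**Figure D4:**
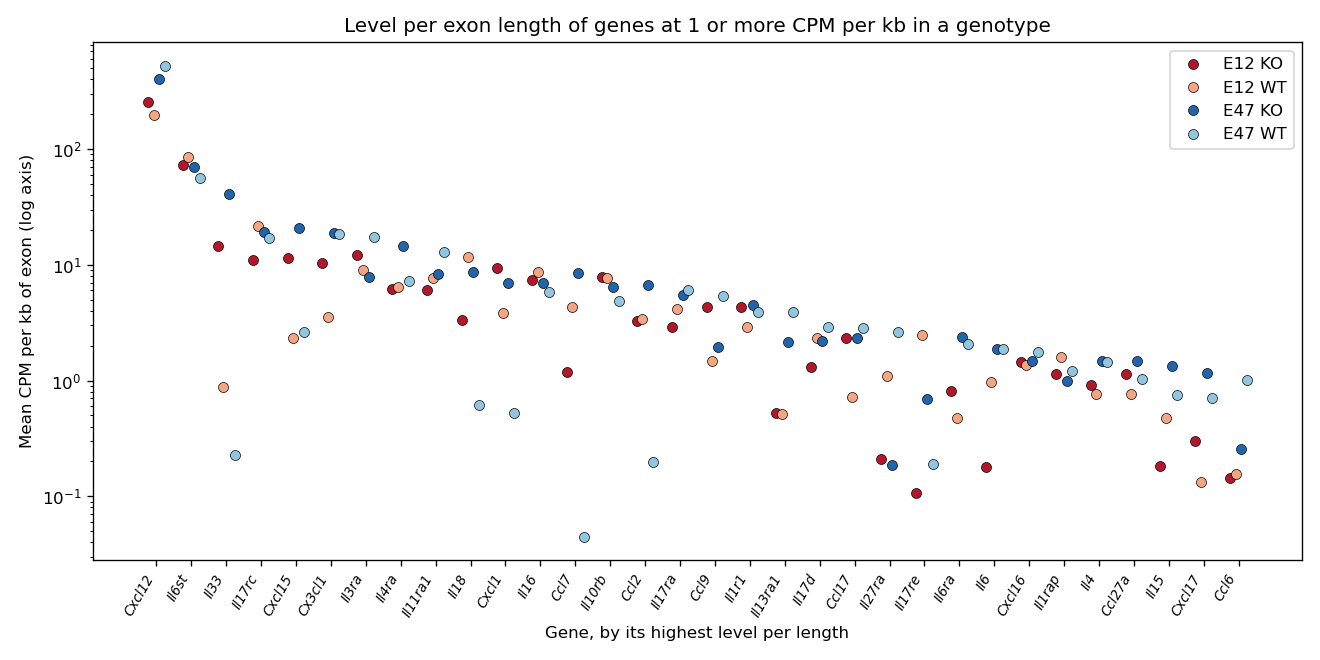
Each point is a genotype's mean CPM per kb of exon on a log axis, for the members that reach 1 CPM per kb in a genotype, ordered by their highest value. Cxcl12 leads, Il6st follows, and Il33 comes next through its level in the knockouts.

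Per kb of exon length, which makes genes comparable, Cxcl12 stood at 255 CPM per kb in E12 KO, 199 in E12 WT, 407 in E47 KO and 523 in E47 WT. Il6st had a maximum of 86.2 CPM per kb and Il33 of 40.8 CPM per kb, and 32 members reached 1 CPM per kb in a genotype. Cxcl12 and Il6st together held 84.8% to 90.1% of the members' counts in a library. Without them, the members summed to 459 to 479.9 CPM in E12 KO, against 434 to 443 CPM in E12 WT, and to 711 to 739 CPM in E47 KO, against 537 to 544 CPM in E47 WT. Chemokines other than Cxcl12 summed to 106 to 120.5 CPM in E12 KO, against 47.2 to 47.6 CPM in E12 WT, and to 163 to 173 CPM in E47 KO, against 108 to 114 CPM in E47 WT.

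The 77 members that were not tested were all low. The largest was Il11, a gp130 cytokine linked to fibrosis, with 57 counts in all. It had 5 and 6 counts in E12 KO, 5 and 7 in E12 WT, 6 and 6 in E47 KO, and 10 and 12 in E47 WT. A further 11 untested members had 10 counts or more over the 8 libraries, among them Il1rn, the IL1 receptor antagonist, Cxcl10 and Ccl5. Il1b, the secreted IL1 of inflammasome activation, had no count in any library, which at this depth allows 0.117 to 0.224 CPM a library (3 counts, counting error only).

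Few chemokine receptor genes reached a level that could be tested. Of 23 chemokine receptor genes, 2 were tested. Ackr3, which takes up and clears CXCL12, averaged 9.33 CPM in E47 KO against 2.16 CPM in E47 WT, a rise of 2.11 on the log2 scale (adjusted p = 1.5e-07), and 0.554 CPM in E12 KO against 0.511 CPM in E12 WT (adjusted p = 0.86). Ccr10 passed in neither.

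Among 16 NF-kappaB subunits and inhibitors, 10 rose and 1 fell in E47 KO, and 3 rose and 4 fell in E12 KO, with medians of 0.48 and -0.11 on the log2 scale. That is 68.75% called in E47 KO against 55.2% of all genes, and 43.75% in E12 KO, near the 46.4% of all genes. In E47 KO, Bcl3 rose by 2.77 (adjusted p = 7.2e-08), Nfkbia, an inhibitor that NF-kappaB itself induces, by 0.85 (adjusted p = 9.2e-07), Nfkb2, with 18.1% of its exon bases in other genes, by 0.84 (adjusted p = 1.3e-07) and Tnfaip3, which ends the signal, by 0.76 (adjusted p = 4.6e-07). Bcl3 averaged 8.24 CPM in E12 KO, 11.2 in E12 WT, 7.67 in E47 KO and 1.135 in E47 WT. In the same order, Nfkbia averaged 43.5, 30.5, 43.8 and 24.4 CPM and Nfkb2 84.8, 95.6, 82.5 and 46.2 CPM. Tnfaip3 averaged 78.0, 86.3, 125.5 and 74.0 CPM. In E12 WT relative to E47 WT, 11 of the 16 were higher and 2 lower (81.25%), against 55.4% of all genes. In E12 KO, Tnip1 fell by 0.58 (adjusted p = 7.1e-06) and Nfkbia rose by 0.51 (adjusted p = 0.00017). Of 14 adaptors of IL1 and Toll signalling, 3 rose and 4 fell in E12 KO, and 3 rose and 5 fell in E47 KO, shares of 50% and 57.1% that lie near the background. Myd88, the common adaptor, which overlaps another gene in 11.3% of its exon bases, rose by 0.90 in E47 KO (adjusted p = 2.5e-06). It averaged 18.9 CPM in E12 KO, 16.9 in E12 WT, 18.8 in E47 KO and 10.1 in E47 WT. Irak3, a brake on the pathway, rose by 0.92 in E12 KO (adjusted p = 0.0014) and by 1.27 in E47 KO (adjusted p = 5.7e-05). Tollip fell in both, with log2 changes of -0.26 in E12 KO (adjusted p = 0.01) and -0.65 in E47 KO (adjusted p = 3.4e-06). Sigirr fell in E47 KO (-3.575, adjusted p = 8.2e-06). It held 2 counts in E12 KO, so no fold is given there.

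Of 21 tested JAK, STAT and SOCS genes, 7 rose and 6 fell in E12 KO, and 3 rose and 8 fell in E47 KO. The shares called were 61.9% in E12 KO, against 46.4% of all genes, and 52.4% in E47 KO, near the 55.2% of all genes. Socs3, a feedback inhibitor of gp130 signalling, rose by 1.36 in E47 KO (adjusted p = 9.6e-09), and Cish, another feedback inhibitor with 11.5% of its exon bases in other genes, fell by 1.03 in E12 KO (adjusted p = 6.6e-07). Socs6 rose by 0.79 (adjusted p = 8.9e-07) and Socs5 by 0.64 (adjusted p = 1.7e-06) in E12 KO. In E47 KO, Socs5 rose by 0.53 (adjusted p = 9.8e-06). Jak3, the kinase bound to Il2rg, averaged 5.55 CPM in E12 KO against 2.35 CPM in E12 WT (adjusted p = 0.00012), and 6.10 CPM in E47 KO against 17 CPM in E47 WT (adjusted p = 2e-07). Of 6 tested partners of the IL6 family, 0 rose and 5 fell in E12 KO (0 higher also at an unadjusted p under 0.05 and by DESeq2), and 3 rose and 1 fell in E47 KO, 83.3% and 66.7% of the list against 46.4% and 55.2% of all genes. Clcf1 fell by 1.37 (adjusted p = 7.7e-09) and Lif by 0.91 (adjusted p = 3.1e-07) in E12 KO, and Lif rose by 1.20 (adjusted p = 4.4e-08) while its receptor Lifr fell by 1.59 (adjusted p = 6.7e-08) in E47 KO.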

How the data were processed

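The authors' deposited table holds whole-number counts per gene, 1 column for each of 8 libraries, neither pooled nor normalized, from polyA-enriched libraries without strand, per the labels' protocols. The submitters' processing notes name FastQC, HISAT, featureCounts and GRCm38 (mm10). Versions, settings, annotation, the handling of multiple matches and the counting of reads or of fragments: not given in the sources used here. All rows carried a name.

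The tests used edgeR 4.0.16 (R 4.3.3). The low-count filter of edgeR for the 4 groups left 13992 genes, TMM factors (trimmed mean of M values) scaled the libraries, a 4-group model without covariates (4 residual degrees of freedom, common biological coefficient of variation 0.0598) was fitted, and p-values from the quasi-likelihood test were adjusted by Benjamini-Hochberg over all genes tested, with a call under 0.05. SE is an approximate standard error of a log2 change, taken as the size of the change over the square root of its quasi-likelihood F statistic. Groups with 3 counts or fewer have levels and no fitted fold. Libraries of 13909230 to 27517374 counts make 3 counts equal to 0.117 to 0.224 CPM, for counting error only, as PCR copies were not told apart by molecular identifiers. The fit was tested on simulated data. In that simulation few genes changed, in E12 KO only, and all genes shared the same spread, so its setting was simpler than these data. Exon positions, lengths and overlaps came from GENCODE M21 (GRCm38) and promoter windows from RefSeq (GRCm38.p6).

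Any tested member may be named. Full statistics went to at most 12 called members per knockout comparison, and 6 each for the difference and the wild types, with the lowest p and a mean of at least 2 CPM, and up to 4 genes per pathway list were named. A gene that this rule took is not reported here. A set of well-known members is always given. Members, lists and tests were chosen with earlier results of these data known. Alternatives were DESeq2 1.42.0, other size factors and filters, a fit of only the groups compared, leaving out each library, and a fit without the E47 WT libraries, the last chosen after seeing the data.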

Additional observations from a re-analysis of the deposited data

Results flagged for a closer look

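The 2 knockouts differed in their change for 32 of 45 tested members, by the interaction contrast of edgeR's quasi-likelihood test at an adjusted p under 0.05, and these are listed here with the log2 change in E12 KO minus that in E47 KO. Among chemokines, the difference was -0.74 for Cxcl15, -2.43 for Cxcl1, 0.72 for Cxcl12, 1.53 for Cx3cl1, -5.05 for Ccl2, 2.98 for Ccl9 and 1.91 for Ccl17. Among interleukins and their inhibitor, it was -3.44 for Il33, -5.64 for Il18, -2.44 for Il6, -2.24 for Il15, -3.35 for Il7, -0.49 for Il16 and 2.84 for Il18bp. In the IL1 and IL17 receptor families, it was 0.42 for Il1r1, 3.30 for Il1rl2, -5.99 for Il18rap, -6.41 for Il17re, -1.15 for Il17rc and -0.36 for Il17ra. Among the other receptor subunits, it was 0.91 for Il13ra1, 0.60 for Il6ra, -1.07 for Il4ra, 1.42 for Il27ra, 1.58 for Il3ra, -1.61 for Il20rb, -0.56 for Il6st and -0.36 for Il10rb. Il1rl1 (adjusted p = 0.00064), Ccl20 (adjusted p = 0.035), Ccl7 (adjusted p = 6e-09) and Il2rb (adjusted p = 0.036) also differed, but held 3 counts or fewer in a group, so no fitted difference is given. For Il33, Cxcl15, Cxcl1, Ccl20 and Il27ra the difference is one of size, since both knockouts moved the same way. Of these differences, 9 fell short of the threshold when single libraries were left out, with the largest adjusted p being 0.27 for Il1r1, 0.14 for Il7 and 0.07 for Cxcl15 without E12 WT replicate 1, 0.08 for Il6ra without E47 WT replicate 2, 0.085 for Il17ra and 0.08 for Il10rb without E47 WT replicate 1, 0.082 for Il27ra and 0.14 for Ccl17 without E12 KO replicate 2, and 0.15 for Il20rb without E47 KO replicate 1.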

How the results depend on the processing

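No paired analysis was possible because the labels number the libraries of the series and give no number shared between genotypes. Of 109 called changes of members that were followed, 79 kept their call and direction in every alternative, 30 lost the call in at least 1 and 0 changed direction. Leaving out each library in turn left 1 library in a genotype and 47 to 49 members tested, and moved the number of called members in every comparison. DESeq2 called 25 members in E12 KO, 22 in E47 KO, 24 for the difference of the changes and 32 between the wild types. Of all genes, DESeq2 called 37.6% in E12 KO and 45.7% in E47 KO. Where an alternative ended a call, the cause was not tested. Members under 1 CPM rest on few counts, and 2 libraries a genotype limit the precision of all changes.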
